A study of Mus musculus with 17 samples.

Results

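The 80 genes described here encode the nuclear-encoded subunits of the mitochondrial respiratory chain and of the ATP synthase, as measured in sorted HSPC (hematopoietic stem and progenitor cells), which give rise to all blood lineages. They were taken by symbol from a table of 35321 genes: Nduf genes of the a, b, c, s and v series for complex I, Sdha to Sdhd for complex II, Uqcr genes for complex III, Cox4 to Cox8 genes for complex IV and Atp5 genes for complex V. The symbols matched 84 genes, and 80 had at least 10 counts in at least 3 libraries. The 4 others (Ndufa4l2, Cox7b2, Cox8b and Cox8c) had fewer than 10 counts in every library. The members are 36 of complex I, 4 of complex II, 8 of complex III, 15 of complex IV and 17 of complex V. Ndufa4 was kept under complex I by its symbol, although many count its protein with complex IV.

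Polyadenylated RNA was sequenced in 17 libraries of HSPC sorted from bone marrow of wild-type C57BL/6J mice. There were 5 PBS libraries, titled day 0. The LPS group and the group given LPS plus a blocking antibody against the receptor of interleukin-10 (IL-10R) had 3 libraries each at 24 h and 3 each at 72 h. LPS (lipopolysaccharide) is an inflammatory component of the outer membrane of Gram-negative bacteria, and all injections were intraperitoneal. The antibody was always given with LPS, so its effect without LPS was not measured, and PBS was sampled at a single time. The amounts, 5 of LPS and 100 of antibody, are in micrograms in the design text and in milligrams in the sample labels, and it was not assumed which is right. Sex and age are not given in the labels, nor whether each library came from a separate animal, so p-values measure the spread between libraries.

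The respiratory chain passes electrons from NADH (complex I) and succinate (complex II) through complex III to oxygen at complex IV, and the proton gradient built on the way drives ATP synthesis at complex V. All complexes but complex II also hold subunits encoded by mitochondrial DNA, so each of those is built from products of both genomes. Quiescent hematopoietic stem cells are known for reliance on glycolysis, and activation is accompanied by a rise in mitochondrial respiration. The 13 mitochondrially encoded subunit genes were listed at 0 in all libraries, so only the nuclear side was measured.

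Promoters of respiratory chain genes are known for binding sites of the factor NRF1, and the sequences that hold its core are shown because the members below tended to move together. RefSeq promoter windows (250 bases before to 50 after the start, build GRCm38.p6) were matched for 66 of the 80 members. The core GCATGCGC was searched on both strands (as GCGCATGC on the other), and where both readings overlap they form the run GCGCATGCGC. It was present in 10 of 66 member windows (15.2%) and in 2.80% of all 27025 windows. Among the 10938 windows of genes with at least 10 counts in at least 3 libraries (expressed genes), it was in 5.27%. In 8 members the core lay before the start. These stretches are given 5′ to 3′ on the gene's strand, with the core in capitals.
Ndufa8, chr2:36049339-36049382, minus strand: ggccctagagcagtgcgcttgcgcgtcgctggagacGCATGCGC
Sdhb, chr4:140961181-140961260, plus strand: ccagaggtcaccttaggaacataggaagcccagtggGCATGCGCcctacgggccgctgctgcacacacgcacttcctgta
Atp5k, chr5:108434406-108434485, minus strand: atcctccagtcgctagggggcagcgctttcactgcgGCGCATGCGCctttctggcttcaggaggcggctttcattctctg
Cox6a1, chr5:115349077-115349156, minus strand: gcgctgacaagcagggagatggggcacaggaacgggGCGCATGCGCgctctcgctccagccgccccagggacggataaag
Atp5l, chr9:44920939-44920992, minus strand: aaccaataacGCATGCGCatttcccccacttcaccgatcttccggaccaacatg
Ndufa6, chr15:82354331-82354410, minus strand: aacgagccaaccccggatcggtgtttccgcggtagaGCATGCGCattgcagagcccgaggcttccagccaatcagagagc
Atp5g2, chr15:102671048-102671125, minus strand: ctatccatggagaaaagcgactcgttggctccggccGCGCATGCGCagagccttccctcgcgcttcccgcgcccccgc
Ndufa11, chr17:56717666-56717745, plus strand: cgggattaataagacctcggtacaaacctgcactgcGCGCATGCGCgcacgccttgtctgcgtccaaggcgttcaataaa
The other members with the core, Uqcr11 and Uqcrc1, have it across or after the start. Other motifs were searched in the same windows on both strands. The ETS letters CCGGAAG, read by GABP, were in 24.2% of member windows against 17.86% of those of expressed genes. The corresponding shares were 13.6% and 4.61% for the YY1 letters AAGATGGC, 12.1% and 3.26% for the ERR letters AAGGTCA, and 9.10% and 9.98% for the E-box CACGTG. A match is a description of the letters and not of binding.

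Library totals ran from 10516722 to 16006001 counts. LPS library 1 at 24 h stood apart, with 16431 genes detected and a TMM scaling factor of 0.799, against 16815 to 18778 genes and factors of 0.947 to 1.12 in the other libraries. The main counts at 24 h are therefore given with and without it. HSPC markers were detected in all groups, with summed levels from 2276 to 2808 CPM (the read count of a gene relative to the TMM-scaled library total) in PBS and from 1744 to 1943 CPM in LPS at 24 h. Markers of other cell types were also present. In LPS at 24 h, 9 of 10 monocyte-macrophage markers (summed level 331.2 to 692.3 CPM; PBS 570.9 to 2922 CPM) and 3 of 9 B-lymphoid markers (73.42 to 97.64 CPM; PBS 391.8 to 1345 CPM) were called lower. Of the others, 4 of 10 HSPC, 3 of 10 T and NK, 3 of 10 megakaryocyte, 1 of 10 erythroid and 0 of 10 neutrophil granule markers were called lower. Over all genes tested, 18.5% were called lower. When LPS library 1 at 24 h was left out, the counts were 7 for monocyte-macrophage, 1 for B-lymphoid, 3 for HSPC, 2 for T and NK, 1 for megakaryocyte and 0 for erythroid and neutrophil granule markers. The share of all genes called lower was then 10.2%. With antibody at 24 h, 7 of 10 monocyte-macrophage, 6 of 10 megakaryocyte and 3 of 10 HSPC markers were called lower. Also lower were 2 of 9 B-lymphoid and 2 of 10 T and NK markers, and 12.5% of all genes. No erythroid or neutrophil granule marker was called, and 1 HSPC marker was called higher. Summed erythroid markers ran from 13.9 to 626.7 CPM between the antibody libraries at 24 h, and from 128.8 to 243.5 CPM in PBS. With antibody at 72 h, 5 of 10 T and NK, 2 of 10 monocyte-macrophage, 1 of 10 HSPC and 1 of 10 erythroid markers were called lower. The share of all genes called lower there was 6.43%. In LPS at 72 h no marker was called against PBS (0.0201% of all genes). Summed erythroid markers there (5.705 to 42.7 CPM) lay below all PBS libraries. From 24 h to 72 h of LPS, 4 HSPC, 3 T and NK, 1 B-lymphoid and 1 monocyte-macrophage marker rose (14.7% of all genes). Also, 3 erythroid markers fell (16.4% of all genes). Against LPS alone at 72 h, antibody gave 2 T and NK, 1 HSPC and 1 monocyte-macrophage marker lower (6.48% of all genes), none higher. No marker was at 0 in all libraries of a group except Gp6 in LPS with antibody at 24 h. In bulk RNA, fewer cells of a type and less RNA per cell cannot be told apart, and the part of these markers in the results below was not tested.

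In PBS the chain was expressed at unequal levels. Per kilobase of transcript, the median level over members was 81.69 CPM for complex I, 98.48 for complex II, 143.2 for complex III, 173.8 for complex IV and 202.3 for complex V. The highest mean level was that of Atp5b, the catalytic beta subunit of the ATP synthase, at 532.0 ± 71.3 CPM per kilobase (SD, n = 5). Next came Ndufa4 at 446.9 ± 43.5, Cox4i1, the common isoform of complex IV subunit 4, at 437.1 ± 70.8 and Uqcrh, the hinge protein of complex III, at 423.4 ± 56.0 CPM per kilobase (SD, n = 5). The ranges of mean ± SD of these 4 genes overlap, so their order is not resolved. The level exceeded 20 CPM per kilobase for 76 of the 80. The lowest were tissue-restricted isoforms of complex IV, Cox7a1 at 1.82 ± 0.464 and Cox4i2 at 2.13 ± 0.336 CPM per kilobase (SD, n = 5).

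When the members' CPM were summed per library, every complex had its highest group mean in LPS at 24 h. Without library 1 of that group, the mean was higher with antibody at 24 h for complexes I, III, IV and V, and complex II kept its highest mean in LPS at 24 h (829.7 against 816.9 CPM). Complex I summed to 2780, 2871, 2379, 2993 and 2419 CPM in the PBS libraries and to 6204, 3256 and 3247 CPM in the LPS libraries at 24 h. All 3 LPS libraries lay above the PBS range, and library 1 lay far above the others. With antibody at 24 h the sums for complex I were 3498, 3245 and 4002 CPM, again all above PBS. At 72 h the sums were 3526, 4053 and 2525 CPM with LPS and 2728, 3063 and 3444 CPM with LPS and antibody, which overlap the PBS range in each case.

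Complex II was lowest in sum and went from 659.6 ± 48.4 CPM (SD, n = 5) with PBS to 920.8 ± 160 CPM with LPS and 816.9 ± 131 CPM with LPS and antibody at 24 h (SD, n = 3 each). Complex III went from 1036 ± 118 CPM (SD, n = 5) to 1791 ± 673 and 1518 ± 181 CPM (SD, n = 3 each). Complex IV went from 1760 ± 213 CPM (SD, n = 5) to 2797 ± 1250 and 2438 ± 318 CPM (SD, n = 3 each). The wide SDs of the LPS group at 24 h come from library 1. Complex V held the highest sums, with 4407, 4075, 3689, 4623 and 3676 CPM in PBS, 9377, 5862 and 5657 CPM with LPS at 24 h and 5443, 5650 and 6981 CPM with LPS and antibody at 24 h. Every library of both 24 h groups exceeded every PBS library for complex V.

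**Figure D1:**
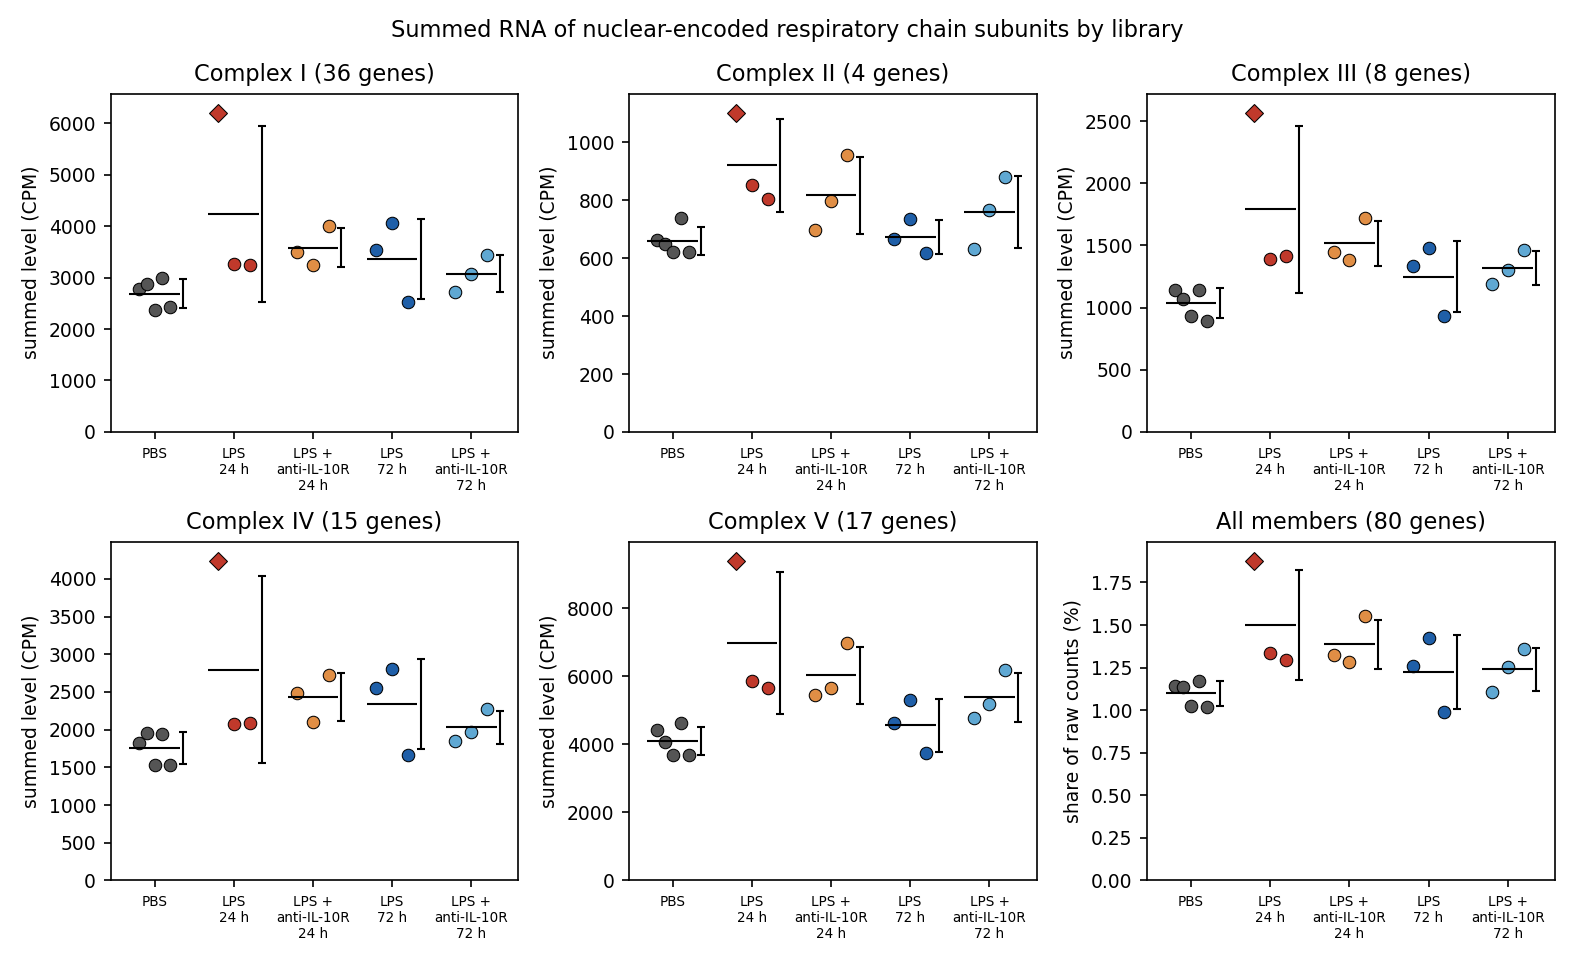
Summed level of the members of each complex in CPM on the TMM-scaled total (y axis, first 5 panels) and the members' share of raw counts in percent (last panel) by group. Dots are libraries, lines group means and bars SD; the diamond is LPS library 1 at 24 h, which lies above all others in every panel, for example at 6204 CPM for complex I.

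As a share of raw counts, which needs no scaling factor, the 80 members took 1.10% ± 0.0724 (SD, n = 5) of counts in PBS. They took 1.88%, 1.33% and 1.29% in LPS at 24 h and 1.33%, 1.28% and 1.55% with antibody at 24 h. At 72 h the LPS libraries split, with 1.26% and 1.42% in libraries 1 and 2 and 0.990% in library 3, below the PBS libraries. The number of members above every PBS library shows the same split: 54 and 69 of 80 in LPS libraries 1 and 2 at 72 h, and 2 in library 3. The counts were 78, 57 and 54 in LPS at 24 h, 66, 55 and 72 with antibody at 24 h, and 27, 46 and 64 with antibody at 72 h. All genes were not counted in this way for single libraries, so these counts have no background beside them. Within groups, the median coefficient of variation over members was 12.8% in PBS, 41.9% in LPS at 24 h, 15.8% with antibody at 24 h, 23.2% in LPS at 72 h and 12.7% with antibody at 72 h.

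The early response was measured by comparing LPS at 24 h with PBS. By edgeR's quasi-likelihood test (adjusted p under 0.05 over all 14920 genes tested), 58 of 80 members rose and 1 fell. Over all genes 19.1% were called higher and 18.5% lower. The median log2 change of the members was 0.72, against -0.03 for all genes, and 77 members had a positive change. In 52 members all 3 LPS libraries lay above all 5 PBS libraries, as in 20.6% of all genes. With LPS library 1 left out, 52 members had both remaining libraries above all PBS libraries, as had 24.7% of all genes. With upper-quartile in place of TMM factors the median of all genes shifted to -0.16 and 2030 genes were called higher and 3490 lower, against 2849 and 2767 before; 49 members were then called higher and 1 lower, with a median of 0.57. With the replicate number as a block, 32 members were called higher and 1 lower (13.8% and 14.1% of all genes). That fit takes nothing for this comparison from PBS libraries 4 and 5, since no other group holds those numbers.

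Without LPS library 1 at 24 h, 21 members were called higher and 1 lower, where 11.8% of all genes were called higher and 10.2% lower. All 22 were also called with it, in the same direction. The median change of the members was then 0.34, and 67 of 80 had a positive change. By complex, 25 members of complex I were called higher with library 1 and 9 without it, 2 and 1 of complex II, 7 and 4 of complex III, 11 and 1 of complex IV, and 13 and 6 of complex V. With the replicate number as a block and all libraries, the counts were 15, 1, 5, 4 and 7 for complexes I to V. The plot of changes with and without library 1 shows most members moving toward 0 when it is left out.

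**Figure D2:**
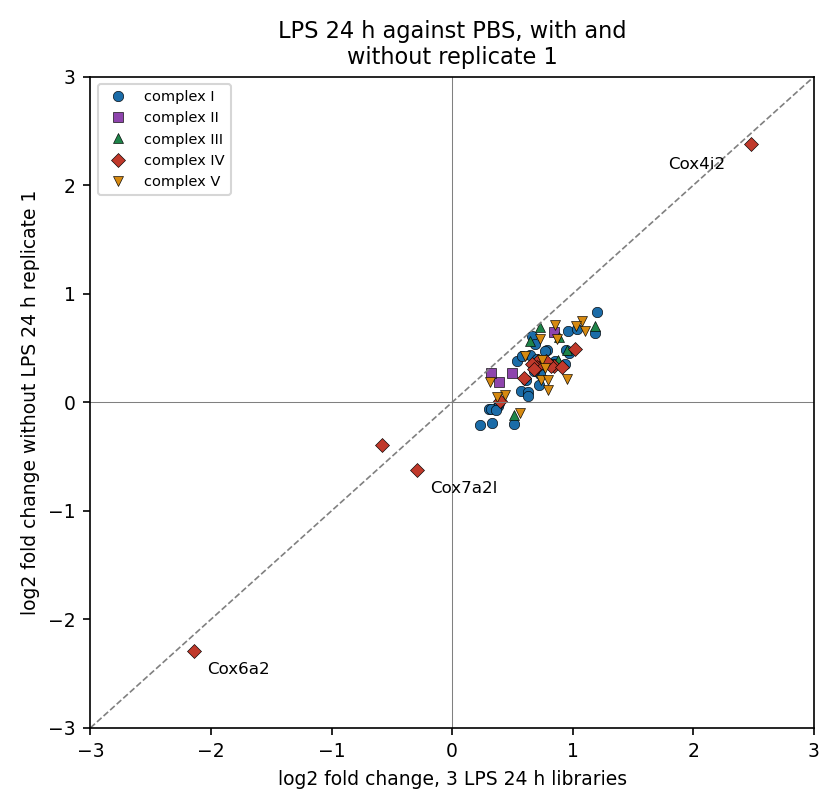
Log2 change from PBS to LPS at 24 h for each of the 80 members, with all libraries (x axis) and without LPS library 1 at 24 h (y axis); the dashed line marks equal values. Most points lie under the line, with the median falling from 0.72 to 0.34, while Cox4i2 (2.48 and 2.38) and Cox6a2 (-2.14 and -2.29) stay near it.

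In complex I, which takes electrons from NADH, all 7 core subunits and 18 of 29 accessory subunits rose. These counts were 3 and 6 when LPS library 1 at 24 h was left out, and with the replicate block 5 and 10. Ndufs1, an iron-sulphur subunit of the NADH-oxidising arm, measured 116.4, 101.1, 104.8, 118.1 and 101.5 CPM in PBS and 186.4, 166.6 and 161.0 CPM in LPS at 24 h. The groups did not overlap, and library 1 was close to the other LPS libraries. Its log2 change was 0.66 (SE 0.149, edgeR adjusted p = 0.00358), and 0.61 without library 1 (adjusted p = 0.0206). Ndufv1, which binds NADH, changed by 0.58 (SE 0.134) and Ndufs7, which holds the last iron-sulphur cluster before ubiquinone, by 0.96 (SE 0.191), both still called without library 1.

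The accessory subunits of complex I, which assemble around the core, had the greatest changes within it. Ndufb6 measured 42.40, 34.79, 33.56, 40.59 and 30.60 CPM in PBS and 123.3, 68.59 and 59.77 CPM in LPS at 24 h. All LPS libraries lay above PBS, library 1 well above the others. The log2 change was 1.20 (SE 0.217, edgeR adjusted p = 0.00106), and 0.83 without library 1 (adjusted p = 0.00884). On the opposite strand, Smim27 overlaps 39.0% of the exon bases of Ndufb6, and since strand use in counting is not given in the sources used here, their reads cannot be told apart; Smim27 itself changed by 0.37 (edgeR adjusted p = 0.166). Ndufa5 changed by 1.18 (0.63 without library 1) and Ndufa12 by 1.04 (0.68 without it). The 11 complex I members not called were all accessory (Ndufa1, Ndufa2, Ndufa3, Ndufa4, Ndufa6, Ndufa7, Ndufa13, Ndufb2, Ndufb7, Ndufb11 and Ndufv3).

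Complex II, which links the chain to the tricarboxylic acid cycle, changed in part. Sdhd, one of the membrane anchors, measured 155.8, 130.0, 122.9, 155.5 and 111.7 CPM in PBS and 307.8, 211.8 and 207.9 CPM in LPS at 24 h. The groups did not overlap. Its log2 change was 0.84 (SE 0.161, edgeR adjusted p = 0.00142), and 0.65 without library 1 (adjusted p = 0.0122). The iron-sulphur subunit Sdhb rose by 0.50 (edgeR adjusted p = 0.0159), a call lost without library 1 (0.27, adjusted p = 0.142) and with the replicate block (adjusted p = 0.072). Sdha, the flavoprotein that oxidises succinate, changed by 0.32 (SE 0.138, edgeR adjusted p = 0.0804) and did not pass, although its LPS libraries at 426.8, 390.1 and 364.7 CPM lay above the PBS range of 298.7 to 353.8 CPM.

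Complex III passes electrons from ubiquinol to cytochrome c, and 7 of its 8 members rose. Uqcrfs1, the Rieske iron-sulphur protein, measured 111.7, 101.4, 84.50, 104.8 and 77.90 CPM in PBS and 169.7, 160.7 and 147.2 CPM in LPS at 24 h. The LPS libraries lay close together above all PBS libraries. Its log2 change was 0.73 (SE 0.112, edgeR adjusted p = 0.000537) and 0.69 without library 1. Uqcrq, a small ubiquinone-binding subunit, changed by 1.19 (0.70 without library 1), Uqcr10 by 0.95 (0.48 without it, where edgeR's adjusted p was 0.0583) and the core protein Uqcrc1 by 0.89 (0.61 without it). Uqcrh was the member not called: its LPS libraries were at 491.2, 168.4 and 198.8 CPM and its PBS libraries at 175.6 to 245.2 CPM, so that library 1 alone was high.

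Complex IV reduces oxygen, and the calls of its ubiquitous subunits rested on library 1. Cox4i1 measured 351.5, 366.1, 285.2, 385.1 and 262.0 CPM in PBS and 797.4, 410.6 and 407.5 CPM in LPS at 24 h. All LPS libraries exceeded PBS, the lower 2 by little. The log2 change was 0.71 (SE 0.229, edgeR adjusted p = 0.0246), and 0.32 without library 1 (adjusted p = 0.274). With the replicate block edgeR's adjusted p was 0.0875 for Cox4i1 and 0.0984 for Cox7a2. Cox5a changed by 1.02 with library 1 and 0.49 without it (edgeR adjusted p = 0.00697 and 0.0964). Gm26631, on the opposite strand over 41.7% of the exon bases of Cox5a, changed by 1.09 (edgeR adjusted p = 0.0166). Cox6a1 (0.71 and 0.38) and Cox7a2 (0.91 and 0.33) likewise were called only with library 1 among the fits with and without it. Without it, the called members of complex IV were the isoforms Cox4i2 and Cox6a2.

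Cox4i2, the alternative isoform of subunit 4 known for its induction at low oxygen in lung, lies at chr2:152754173-152765037 on the plus strand (GRCm38). It measured 1.63, 1.18, 1.43, 1.75 and 1.75 CPM in PBS, and 10.1, 6.25 and 9.82 CPM in LPS at 24 h. Its levels were 5.32, 9.76 and 2.93 CPM with antibody at 24 h, 2.199, 1.606 and 1.828 CPM in LPS at 72 h, and 5.80, 2.62 and 2.69 CPM with antibody at 72 h. Both 24 h groups and the 72 h antibody group lay above all PBS libraries, and the 72 h LPS group overlapped PBS. The counts behind the PBS values are 15 to 28 per library. The log2 change at 24 h was 2.48 with LPS (SE 0.346, edgeR adjusted p = 0.000481) and 1.94 with LPS and antibody (SE 0.347, adjusted p = 0.00414). As a share of subunit 4 transcripts per kilobase, Cox4i2 remained minor, at 0.497% ± 0.128 (SD, n = 5) in PBS and 1.76% ± 0.597 (SD, n = 3) in LPS at 24 h.

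Cox6a2, the heart and skeletal muscle isoform of subunit 6a, lies at chr7:128205435-128206387 on the minus strand and was the member that fell. It measured 8.67, 27.6, 7.34, 8.27 and 12.8 CPM in PBS and 3.62, 3.30 and 1.91 CPM in LPS at 24 h. The groups did not overlap, and PBS library 2 was far above the others. The log2 change was -2.14 (SE 0.524, edgeR adjusted p = 0.00571). Cox6a2 was at 5.32, 3.91 and 5.29 CPM with antibody at 24 h, 35.6, 18.9 and 8.85 CPM in LPS at 72 h, and 2.102, 4.671 and 5.233 CPM with antibody at 72 h. Itgad, an integrin gene on the opposite strand over 10.3% of the exon bases of Cox6a2, fell by 5.43 on the log2 scale at 24 h (edgeR adjusted p = 0.00142) and was also highest in PBS library 2, at 124.0 CPM. In LPS at 72 h Itgad was at 3.39, 2.62 and 1.83 CPM, below all PBS libraries, where Cox6a2 was not below them. Reads of the overlap cannot be told apart.

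Complex V makes ATP, and its members fall into the catalytic F1 part, the peripheral stalk that holds it, the c-ring and small supernumerary membrane subunits. Of the F1 part 4 of 5 were called higher, of the peripheral stalk 2 of 4, of the c-ring 2 of 3 and of the supernumerary membrane subunits 5 of 5. In the same order the counts were 2, 1, 2 and 1 without library 1, and 3, 1, 2 and 1 with the replicate block. Differences between these parts were not tested. Atp5b measured 1186, 914.1, 938.0, 1150 and 908.6 CPM in PBS and 2209, 1670 and 1645 CPM in LPS at 24 h. The groups did not overlap. Its log2 change was 0.85 (SE 0.14, edgeR adjusted p = 0.000666), and 0.71 without library 1 (adjusted p = 0.00476). The alpha subunit Atp5a1 changed by 0.73 (0.58 without library 1), and both remained called. Of the supernumerary subunits, Atp5md changed by 1.10 (SE 0.223) and was the one still called without library 1 (0.66, edgeR adjusted p = 0.0166).

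The c-ring turns as protons pass, and Atp5g1, Atp5g2 and Atp5g3 encode the same mature c subunit with different import peptides. Atp5g3 measured 219.3, 219.0, 179.0, 228.2 and 182.9 CPM in PBS and 621.0, 376.6 and 308.5 CPM in LPS at 24 h. Its log2 change was 1.08 (SE 0.213), with an edgeR adjusted p of 0.00165. Atp5g1 changed by 1.03 (SE 0.219, edgeR adjusted p = 0.00255). Both were called without library 1 as well (0.75 and 0.70). Atp5g2 measured 162.5, 183.8, 153.2, 201.4 and 154.5 CPM in PBS and 314.7, 188.8 and 161.3 CPM in LPS at 24 h, and was not called (0.37, edgeR adjusted p = 0.136; 0.05 without library 1). Library 1 alone was above PBS for Atp5g2.

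Of the 8 members whose NRF1 core is printed above, Ndufa8, Sdhb, Atp5k, Cox6a1, Atp5l and Ndufa11 were called higher at 24 h, and Ndufa6 and Atp5g2 were not. Without library 1, Ndufa8 (0.48, edgeR adjusted p = 0.0281) was the one of them still called, where 26.2% of all members and 11.8% of all genes were called higher. With all libraries, the 6 of 8 stand beside 58 of all 80 members called higher (72.5%) and 19.1% of all genes. In that fit the share with a printed core is near that of all members.

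A ratio within each library does not depend on the scaling factor. Of c-ring transcripts per kilobase, Atp5g2 made 46.8% ± 1.82 in PBS (SD, n = 5) and 35.0%, 35.1% and 35.4% in LPS at 24 h, where library 1 did not stand apart. The share of Atp5g2 was 37.1% ± 3.87 with antibody at 24 h, 50.7% ± 3.47 in LPS at 72 h and 37.8% ± 4.29 with antibody at 72 h (SD, n = 3 each). Every library of both 24 h groups and of the 72 h antibody group lay below the PBS range of 43.6% to 48.0%, and the 72 h LPS libraries ran from 47.9% to 54.6%. Atp5g3 made 45.9% ± 1.36 in PBS (SD, n = 5) and 56.2% ± 0.917 in LPS at 24 h (SD, n = 3). The share of Atp5g1 was between 5.78% and 8.66% in the group means. The median transcript length used was 2675.5 bases for Atp5g1, 586 for Atp5g2 and 718.5 for Atp5g3. The size of each share depends on these lengths. These shares were chosen for description and were not tested.

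**Figure D3:**
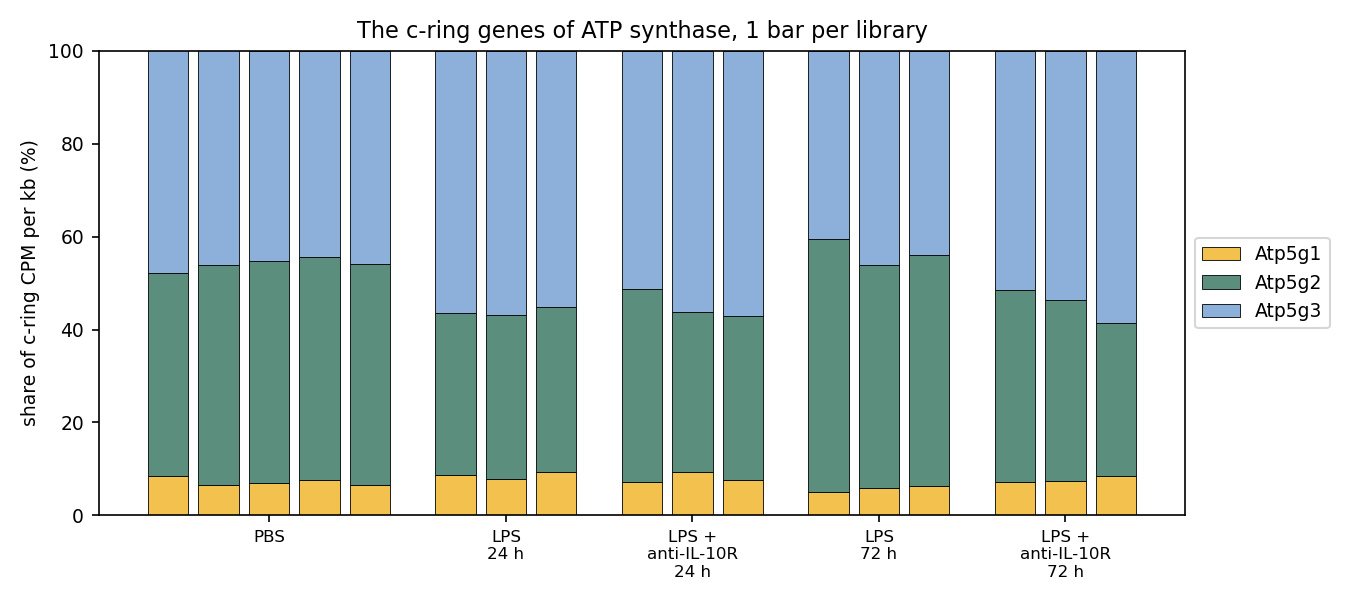
Share of each c-ring gene (Atp5g1, Atp5g2, Atp5g3) in the summed CPM per kilobase of the 3 genes, in percent (y axis), 1 stacked bar per library, ordered by group. The Atp5g2 share is 43.6% to 48.0% in PBS, 35.0% to 35.4% in LPS at 24 h and 47.9% to 54.6% in LPS at 72 h.

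Members have short transcripts, with a median of 731 bases against 2510.25 bases for tested genes of known length, and 55 of 80 are under 1 kb. In tested genes other than members, those under 1 kb took 19.6% of counts in LPS library 1 at 24 h, against 13.2% and 13.8% in libraries 2 and 3 and 13.5% to 16.4% in PBS. In LPS at 72 h those short genes took 19.9%, 19.3% and 14.4% in libraries 1 to 3, the same split as for the members. The median log2 change of the short non-member genes from PBS to LPS at 24 h was 0.10, with 20.1% called higher, and -0.04 without library 1, with 9.07% called higher. The part of transcript length in the members' values was not tested.

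Other genes of the pathway were counted as lists. For comparison, 19.1% of all genes tested were called higher and 18.5% lower at 24 h of LPS (11.8% and 10.2% without library 1). In LPS at 24 h against PBS, 30 of 46 assembly factors, which build the complexes, were called higher and 0 lower (median log2 change 0.59), and 15 were called higher without library 1 (median 0.41). Of 15 tricarboxylic acid cycle genes 10 rose (8 without library 1), and of 78 mitochondrial ribosomal proteins, which translate the mitochondrial subunits, 70 rose (54 without it). Of 95 cytosolic ribosomal proteins 11 rose and 2 fell (6 and 2 without it), with a median that was 0.27 with library 1 and -0.10 without it. Their shares called higher, 11.6% and 6.32%, were below those of all genes. The subunits and electron carrier outside the symbol rule all rose: Cyc1, the cytochrome of complex III, by 1.13 (SE 0.177), cytochrome c (Cycs) by 1.38 and Ndufab1 by 1.01. Of 13 regulators of mitochondrial gene expression 6 rose (4 without library 1), among them Esrra (ERR alpha) by 0.77, Pprc1 by 0.60 and Myc by 0.57 (0.55 without library 1, edgeR adjusted p = 0.0955), and 2 fell with and without it, Ppargc1a (PGC-1 alpha) by -2.95 (edgeR adjusted p = 0.0099) and the GABP subunit Gabpb1 by -0.44. Ppargc1a was near the floor, at 0.5011 to 1.965 CPM in PBS and 0 to 0.412 CPM in LPS at 24 h, so the size of its fall is uncertain.

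LPS with antibody at 24 h was compared with the same PBS libraries. Of 80 members 22 were called higher and 0 lower, where 11.7% of all genes were called higher and 12.5% lower by edgeR (with upper-quartile factors, 1120 genes were higher and 2328 lower, against 1743 and 1862). At an unadjusted p under 0.05 there were 45 members (5754 of all genes). DESeq2's Wald test called 26 members, where 2053 of all genes were called higher and 2177 lower. The median log2 change was 0.47, against 0.00 for all genes, and 77 members had a positive change. In 52 members all antibody libraries lay above all PBS libraries, as in 14.2% of all genes. The called members were 8 of complex I, 1 of complex II, 5 of complex III, 2 of complex IV and 6 of complex V.

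The count for LPS with antibody at 24 h depended on the libraries in the fit. Without LPS library 1 at 24 h, which is in neither group, 52 members were called higher and 0 lower (15.8% and 13.1% of all genes), the 22 among them. Leaving out antibody library 2 or 3 at 24 h left 6 or 9 called members, and leaving out PBS library 2 or 5 left 14 or 13. Over all genes these fits called 413, 1599, 1072 and 1173 higher and 464, 1465, 1285 and 1105 lower, in that order. With all libraries 1743 genes were called higher and 1862 lower. The effect sizes moved little: the median was 0.50 without LPS library 1.

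With antibody at 24 h, Uqcrfs1 measured 162.9, 156.0 and 163.4 CPM, all above the PBS maximum of 111.7 CPM, and its log2 change was 0.74 (SE 0.112) with an edgeR adjusted p of 0.00352. Atp5b measured 1460, 1604 and 1870 CPM, for a change of 0.69 (SE 0.141, edgeR adjusted p = 0.00591). Sdhd rose by 0.69, Ndufb6 by 0.83, Ndufs7 by 0.65, Ndufs1 by 0.56 and Uqcrq by 0.88. Of the c-ring, Atp5g3 rose by 0.82 and Atp5g1 by 0.69. Cox6a2 changed by -1.41 and did not pass (edgeR adjusted p = 0.0506). The direct comparison of LPS with antibody and LPS at 24 h called 0 of 14920 genes (0% of all genes) by edgeR. No member had an unadjusted p under 0.05, against 273 of all genes, and DESeq2 called 0 members. The median of the members in that comparison was -0.25, and 0.18 without LPS library 1, so its sign turned with that library.

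**Figure D4:**
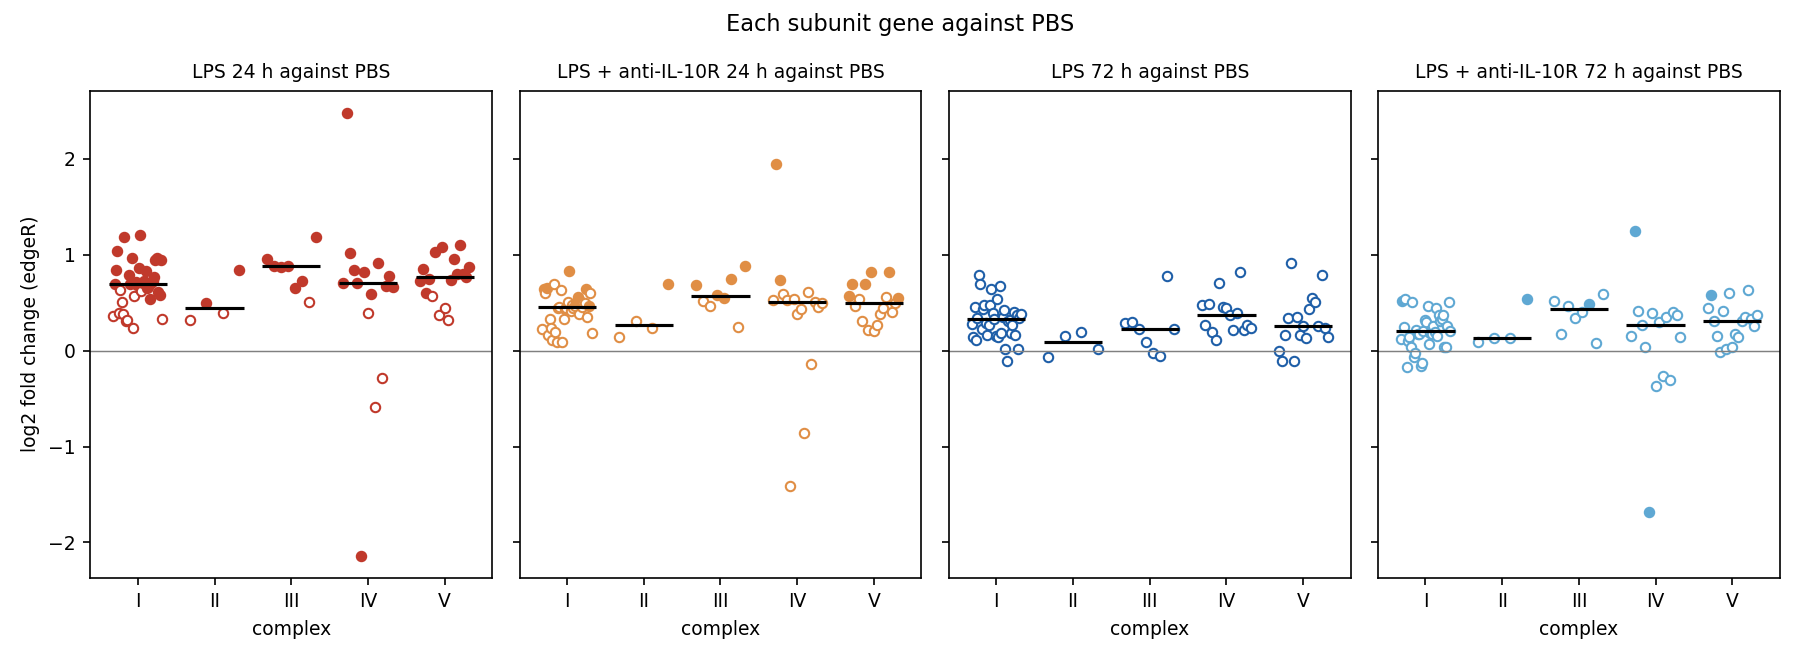
Log2 change of each member from PBS (y axis) by complex (x axis) in the 4 injected groups, 1 panel each; filled points passed edgeR's test at an adjusted p under 0.05 and short lines are medians per complex. At 24 h most members lie above 0 (medians over all members 0.72 and 0.47), and at 72 h they lie closer to 0 (0.27 and 0.25).

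LPS at 72 h gave few edgeR calls against PBS, and its libraries were split. Of 80 members 0 were called, as were 0.0201% of all genes, and 10 members (1702 of all genes) had an unadjusted p under 0.05. DESeq2 called 0 members (53 of all genes higher and 125 lower). With limma's voom and sample quality weights 43 members were called, where 1239 of all genes were called higher and 931 lower. Its weights were 1.43 and 2.88 for LPS libraries 1 and 2 at 72 h and 0.454 for library 3, so library 3 counted least. The median log2 change was 0.27, against -0.03 for all genes, and 73 members had a positive change. LPS library 3 at 72 h was near PBS and libraries 1 and 2 were above it for most members: Uqcrh, for example, was at 418.0, 415.3 and 196.8 CPM, against 175.6 to 245.2 CPM in PBS.

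Between 24 h and 72 h of LPS, 21 members fell and 2 rose by edgeR's test, where 16.4% of all genes were called lower and 14.7% higher. The median change was -0.43. The fall covered 8 members of complex I, 1 of complex II, 4 of complex III, 2 of complex IV and 6 of complex V. Atp5b went from 2209, 1670 and 1645 CPM to 929.3, 1019 and 879.8 CPM, inside its PBS range in 2 libraries and below it in library 3. The log2 change was -0.97 (SE 0.161), with an edgeR adjusted p of 0.000607. Uqcrfs1 fell by 0.79 (SE 0.128), Atp5g1 by 1.14 (SE 0.253), Ndufb6 by 1.07 (SE 0.25) and Cox4i2 by 2.21 (SE 0.41) on the log2 scale. The 2 that rose were Cox6a2 (2.85, SE 0.568) and Cox7a2l (1.11, SE 0.3, edgeR adjusted p = 0.0113), which is known for joining complexes III and IV in supercomplexes.

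Without LPS library 1 at 24 h the balance changed to 9 lower and 9 higher (11.7% and 11.2% of all genes), with a median of -0.04, and 11 members were called in both fits. The 9 lower were Ndufs1, Ndufb6, Sdhd, Uqcrc2, Uqcrfs1, Cox4i2, Atp5b, Atp5g1 and Atp5a1. The 9 higher were Ndufa2, Ndufa3, Ndufa6, Ndufb11, Ndufv3, Uqcrh, Cox6a2, Cox7a2l and Atp5e. Of these, Ndufb11 changed by 0.88 without library 1 and by 0.42 with it, Uqcrh by 0.92 and 0.26, and Atp5e, the epsilon subunit of the F1 part, by 1.04 and 0.34. The members' counts were then near the share of all genes in both directions. In the assembly factors 21 of 46, in the cycle genes 10 of 15 and in the mitochondrial ribosomal proteins 57 of 78 were called lower at 72 h with all libraries, and 15, 6 and 28 without LPS library 1 at 24 h. The shares of all genes called lower were 16.4% and 11.7% in these fits.

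LPS with antibody at 72 h was the remaining comparison with PBS. By edgeR 5 members were called higher and 1 lower, where 6.81% of all genes were called higher and 6.43% lower, so the members' count is near the background. Those higher were Ndufa10 (0.51), Sdhd (0.54), Uqcrfs1 (0.48), Cox4i2 (1.25) and Atp5b (0.58), and Cox6a2 (-1.68) was lower. The median was 0.25. Without LPS library 1 at 24 h in the fit, 17 were called higher and 1 lower (10.1% and 7.85% of all genes). Leaving out antibody library 1 or 3 at 72 h left 3 or 0 called, and leaving out PBS library 2, 3 or 5 left 2, 3 or 2. Over all genes these fits called 553, 385, 490, 694 and 630 higher and 140, 198, 451, 529 and 389 lower, in that order. Of the other lists, 5 of 46 assembly factors, 5 of 15 cycle genes and 13 of 78 mitochondrial ribosomal proteins were called higher. Between 24 h and 72 h with antibody, 0 members and 0% of all genes were called by edgeR. There 2 members and 635 genes had an unadjusted p under 0.05, DESeq2 called 0 members, and the median was -0.20.

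At 72 h, LPS with antibody was set against LPS alone. By edgeR 3 members were called higher and 3 lower, where 8.64% of all genes were called higher and 6.48% lower, so neither count is above the background. Atp5b was at 1395, 1452 and 1710 CPM with antibody and 929.3, 1019 and 879.8 CPM without it, a log2 difference of 0.69 (SE 0.16, edgeR adjusted p = 0.0114). Uqcrfs1 was at 136.6, 126.3 and 140.4 CPM against 89.53, 99.31 and 87.62 CPM, a difference of 0.54 (SE 0.128, edgeR adjusted p = 0.0118). For both genes every antibody library was above every LPS library. Ndufs1 differed by 0.56 (SE 0.17, edgeR adjusted p = 0.0386), with antibody library 3 at 196.5 CPM above the others at 119.8 and 125.7 CPM.

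The 3 members lower with antibody at 72 h were Cox6a2, Cox7a2l and Ndufb11. Cox7a2l (chr17:83501918-83514330, minus strand) was at 163.1, 147.6 and 155.2 CPM with antibody and 434.3, 380.8 and 203.6 CPM with LPS alone. Antibody libraries 2 and 3 lay below the PBS range of 162.2 to 222.7 CPM, and LPS libraries 1 and 2 lay far above it. Its log2 difference was -1.13 (SE 0.301, edgeR adjusted p = 0.0211). Cox6a2 differed by -2.39 (SE 0.555, edgeR adjusted p = 0.0111) and Ndufb11, an accessory subunit of complex I, by -0.81 (SE 0.258, adjusted p = 0.0457). Without LPS library 1 at 72 h, 0 members were called (465 of all genes higher and 304 lower). Without LPS library 2 or antibody library 3 at 72 h 3 were called, and without LPS library 1 at 24 h 4 higher and 6 lower (9.71% and 8.71% of all genes). Over all genes 696 were higher and 497 lower without LPS library 2 at 72 h, and 1088 and 750 without antibody library 3.

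**Figure D5:**
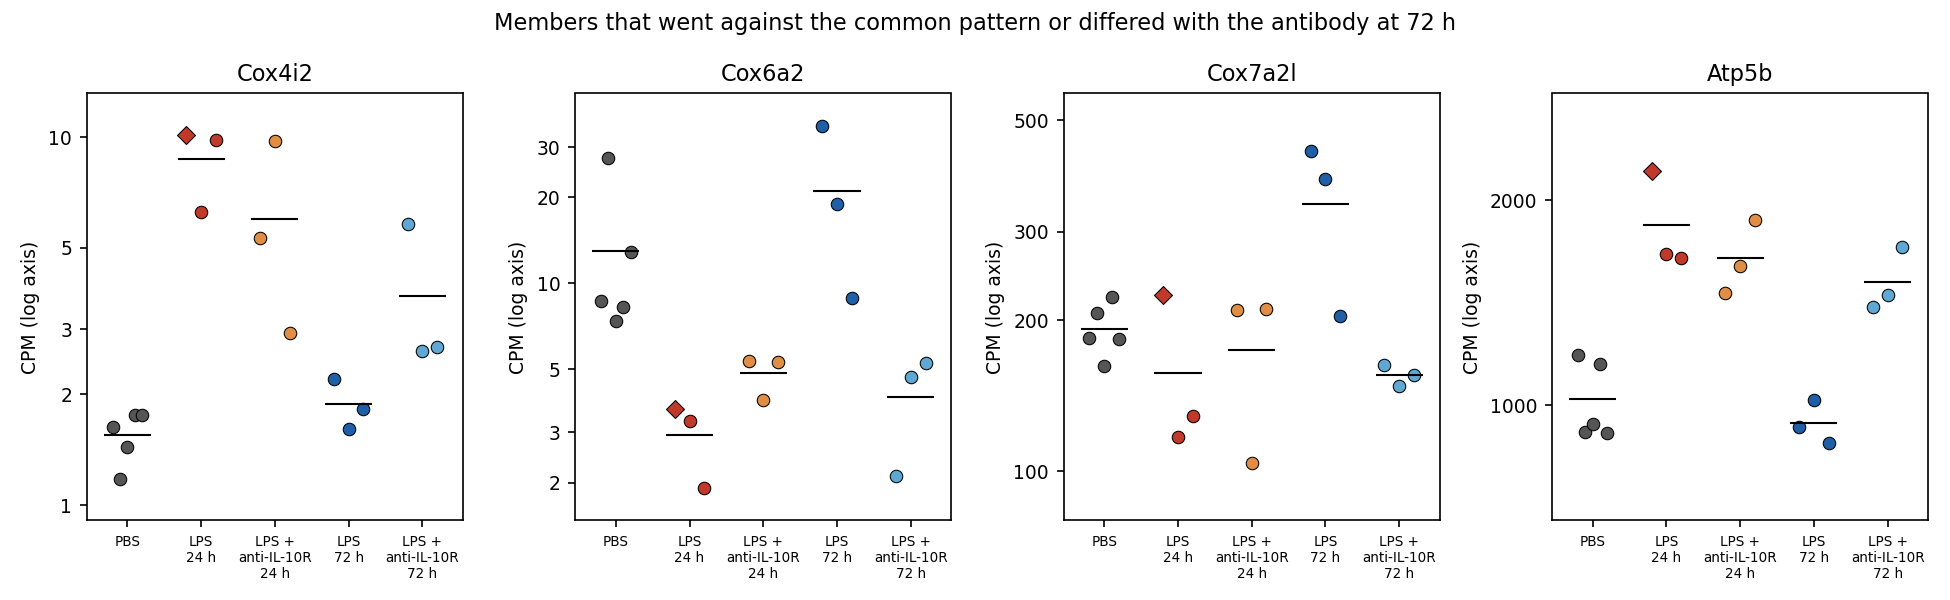
CPM of Cox4i2, Cox6a2, Cox7a2l and Atp5b (log axis) by group; dots are libraries (the diamond is LPS library 1 at 24 h) and lines group means. Atp5b and Cox4i2 are high in both 24 h groups and in the 72 h antibody group and near PBS in LPS at 72 h, while Cox6a2 and Cox7a2l are highest in LPS at 72 h, where Cox7a2l reaches 434.3 CPM.

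Whether the antibody effect differed between the times was tested as an interaction, 72 h minus 24 h. By edgeR 1 member was called higher and 1 lower, where 4.03% of all genes were called higher and 2.32% lower. Atp5b had a difference of 0.85 (SE 0.226, edgeR adjusted p = 0.0382), and 0.67 without LPS library 1 at 24 h (adjusted p = 0.0727). Cox6a2 had a difference of -3.12 (SE 0.781, edgeR adjusted p = 0.0308), and -3.31 without that library (adjusted p = 0.0453). No member was called when LPS library 1 or 2 at 72 h or antibody library 1 or 3 at 24 h was left out. Over all genes these fits called 161, 315, 245 and 179 higher and 70, 158, 131 and 112 lower, in that order. Leaving out LPS library 3 at 24 h, or antibody library 1 or 3 at 72 h, left 1, and leaving out antibody library 2 at 24 h gave 4. Here the counts over all genes were 430, 546, 323 and 894 higher and 146, 208, 190 and 650 lower.

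Ranked by group mean, 67 of the 80 members were highest in LPS at 24 h, 12 in LPS at 72 h and 1 with antibody at 24 h, and 63 were lowest in PBS. Without LPS library 1 at 24 h, 47 were highest with antibody at 24 h, 24 in LPS at 72 h and 9 in LPS at 24 h. The group with the highest level thus depended on that library for most members.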

How the data were processed

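The authors deposited 1 table of raw counts per gene for the 17 libraries. Per the submitters' processing notes, HISAT2 2.2.0, featureCounts 2.1.1 (Subread), R 4.3.2 and DESeq2 were used with build GRCm38; the annotation, strand setting and read filters are not given in the sources used here. Reads shared by near-identical copies or overlapping genes are therefore uncertain. Groups came from the sample titles. The members and gene lists were chosen with earlier results of these data known.

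Counts were tested with edgeR 4.0.16 (glmQLFit, glmQLFTest) in R 4.3.3, after filterByExpr at its defaults (minimum count 10, total 15), which kept 14920 genes with 99.9% of counts, in 1 fit of all libraries with TMM factors. P-values were adjusted by Benjamini-Hochberg over all tested genes and called under 0.05. Standard errors are the absolute log2 change divided by the square root of F. The procedure was tested on simulated data. Levels per kilobase used the median transcript length of each gene in the GENCODE M21 annotation.

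In each comparison, up to 3 called members per complex and direction were named, plus a fixed list of core subunits and isoform families. One gene of that list is not reported here. The cross-strand neighbours, the library splits and the members beyond that rule were chosen after their values were seen.

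Alternatives were scaling by DESeq2 size factors or by the upper quartile, limma 3.58.1 voom with quality weights, the Wald test of DESeq2 1.42.0, no filter, only the groups compared, the replicate number as a block and leaving out each library. Leaving LPS library 1 at 24 h out of comparisons that do not hold it was added after seeing the data. Same-numbered PBS and LPS 24 h libraries deviated together, with correlations across genes of 0.191, 0.188 and 0.158. No other pair of groups passed the threshold set for this in all 3 numbers. For antibody at 24 h and 72 h the values were 0.723, -0.0217 and 0.697, and for LPS and antibody at 24 h -0.0471, -0.0432 and -0.365. The labels state no pairing. Correlations between libraries of different numbers were not computed, so these values cannot show pairing. The block fit gives each number the same effect in all groups and is reported as an alternative only. Numbers 4 and 5 occur only in PBS, so PBS libraries 4 and 5 add nothing to the comparisons in that fit. Its lower counts therefore cannot be read as the effect of pairing alone. No libraries were duplicates.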

Additional observations from a re-analysis of the deposited data

Results flagged for a closer look

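The level of Sdha was 353.8 CPM in PBS library 4, against 298.7 to 310.4 CPM in the other PBS libraries, a gap wide for a group of 5 by Dixon's criterion. The level of Cox6a2 was 27.55 CPM in PBS library 2, against 7.343 to 12.84 CPM in the others. These were 2 of 85 groups examined, and chance alone marks about 1 in 20 groups. The gene on the opposite strand of Cox6a2, Itgad, was also highest in PBS library 2. The antibody effect differed between 72 h and 24 h for Cox6a2, by -3.12 on the log2 scale, and for Atp5b, by 0.85, by edgeR's interaction test. The call was lost in 7 of 19 alternatives for Cox6a2 and in 10 of 19 for Atp5b.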

How the results depend on the processing

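The number of members called was 59 for LPS against PBS at 24 h, 22 for LPS with antibody against PBS at 24 h, 0 for LPS against PBS at 72 h, 6 for LPS with antibody against PBS at 72 h, 23 for LPS at 72 h against 24 h, 6 for the antibody at 72 h and 2 for the interaction. With the replicate number as a block these became 33 (LPS at 24 h), 7 (antibody at 24 h), 0 (antibody against PBS at 72 h) and 0 (interaction), and the block moved no other count by over 1.5 times. In the same order that fit called 2057, 715, 176 and 214 of all genes higher and 2106, 1006, 198 and 119 lower. Fitting only the groups compared gave 55 for antibody at 24 h, 15 for antibody against PBS at 72 h, 14 for LPS at 72 h against 24 h, 3 for the antibody at 72 h and 1 for the interaction. In the same order 2138, 1124, 1859, 766 and 215 of all genes were called higher and 2005, 1239, 1934, 357 and 71 lower. DESeq2's Wald test gave 11 for antibody against PBS at 72 h and 4 for the interaction. It called 1379 and 1001 of all genes higher there and 1538 and 708 lower. With voom and quality weights the counts were 34 (antibody at 24 h), 43 (LPS at 72 h), 15 (antibody against PBS at 72 h), 19 (antibody at 72 h) and 6 (interaction), and LPS library 1 at 24 h had a weight of 0.271. In the same order voom called 2207, 1239, 1681, 2259 and 951 of all genes higher and 2004, 931, 1372, 2174 and 634 lower. Without the filter the interaction gave 1. Leaving out 1 library at a time gave 22 to 64 for LPS at 24 h, 6 to 52 for antibody at 24 h, 0 to 0 for LPS at 72 h, 0 to 18 for antibody against PBS at 72 h, 16 to 32 for LPS at 72 h against 24 h, 0 to 10 for the antibody at 72 h and 0 to 4 for the interaction. The comparisons of antibody with LPS at 24 h and of antibody at 72 h with 24 h called 0 members in every alternative. The cause of these changes was not tested. Of 75 named results that were called, 1116 alternative values kept the call in 934 cases, lost it in 182 and reversed it in 0. Of the named results not called, 65 alternative values were called, and Atp5g2 in LPS at 72 h against 24 h turned from -0.02 to 0.41 (adjusted p = 0.0284) with limma's voom. Depth limited Cox7a1 most, with 2 to 18 counts per library.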
